A study of Callithrix jacchus with 5 samples.

Results

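CDH1, EPCAM, CLDN4 and CLDN7 encode surface proteins that hold epithelial cells together, and their transcript levels were followed in RNA sequencing libraries of common marmoset (Callithrix jacchus) cells. The 4 genes were taken by name, with earlier results of these data known. Each matched 1 Ensembl identifier through a table of gene symbols, and they are 4 of the 30811 identifiers in the count table. The 5 libraries were 1 of induced pluripotent stem (iPS) cells, 1 of fibroblasts and 3 of embryonic stem (ES) cells. The iPS cells were made from fibroblasts with reprogramming factors delivered as RNA, per the series title. Their label gives no P number, no parent line and no clone. The fibroblast library is labelled E01F with P number 1. The ES libraries come from the lines No40, DSY127 and No20, labelled P63, P17 and P45. No group carries a stated genotype or further treatment, and the sources used here do not say whether the sequenced fibroblasts gave rise to the iPS cells.

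E-cadherin, the product of CDH1, is the calcium-dependent adhesion molecule of adherens junctions. Its outer part binds E-cadherin on the next cell, and its tail binds catenins that connect it to actin. EPCAM is a membrane glycoprotein of epithelial cells that is also widely used as a surface marker of human pluripotent cells, and it associates with claudin-7. Claudins, here CLDN4 and CLDN7, are membrane proteins that seal tight junctions and set which ions pass between cells. Human and mouse pluripotent cells grow as epithelial colonies joined by E-cadherin, whereas fibroblasts are mesenchymal cells that lack such junctions, and mouse fibroblasts pass through a mesenchymal-to-epithelial change on the way to pluripotency.

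Total counts were 5746449 in the iPS library, 58601185 in the fibroblast library and 34111715 to 46523012 in the ES lines, so the iPS library was the shallowest. A count of 3 was worth 0.507, 0.063 and 0.061 to 0.083 CPM (read counts scaled to library size with TMM factors) in these libraries. Measured pluripotency markers (5 of 8) summed to 2503 CPM in the iPS library, 2.96 CPM in the fibroblast library and 2201 to 2939 CPM in the ES lines. Measured fibroblast markers (11 of 13) summed to 13574, 89706 and 4184 to 5927 CPM. Both sets thus matched the labels of the fibroblast and ES libraries. The fibroblast marker sum of the iPS library was above that of any ES line, but the single markers went both ways. Of the 11, 6 had a negative log2 fold change in the iPS library against ES cells, and the median of all 11 was -0.0005. Only ES cells were replicated. The tests therefore assume that the lone libraries vary like an ES line (2 residual degrees of freedom), and all p-values reflect only how far these 3 lines differ among themselves.

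Gene positions are those of the deposited table, and no source used here names their assembly. CDH1 (ENSCJAG00000015504) lies on the plus strand of chromosome 20 at 22558638 to 22656245, with 19 exon blocks and 4783 exonic bases. EPCAM (ENSCJAG00000000624) lies on the minus strand of chromosome 14 at 60429704 to 60440930, with 8 blocks and 1284 bases. CLDN4 (ENSCJAG00000021928) occupies 7964008 to 7965623 on the minus strand of chromosome 2, with 2 blocks and 1581 bases. CLDN7 (ENSCJAG00000016622) occupies 74606274 to 74610299 on the plus strand of chromosome 5, with 6 blocks and 1219 bases. The genes are thus on 4 different chromosomes. Claudins are a family of related sequences, and how reads that fit several genes were counted is not stated, which leaves some uncertainty in both claudin values.

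The comparison of fibroblasts with ES cells asked how far the differentiated starting cell type lacks these epithelial genes. All 4 genes were nearly silent in the fibroblast library and abundant in every ES line, and all 4 fell. CDH1 stood at 0.231 CPM in the fibroblast library (11 reads), against 817, 528 and 212 CPM in lines No40, DSY127 and No20. EPCAM stood at 0.651 CPM in fibroblasts (31 reads), against 433, 890 and 525 CPM in the same lines. Both adhesion genes were thus low in the fibroblast library and high in every ES line, and the groups did not overlap.

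CLDN4 reached 1.07 CPM in the fibroblast library (51 reads), against 101, 123 and 118 CPM in No40, DSY127 and No20. CLDN7 stood at 0.147 CPM in fibroblasts (7 reads), against 131, 147 and 96.9 CPM in those lines. Neither claudin overlapped between the groups. The fibroblast library lay below all 4 pluripotent libraries for each of the 4 genes, which was also true of 34.1% of all genes tested.

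**Figure D1:**
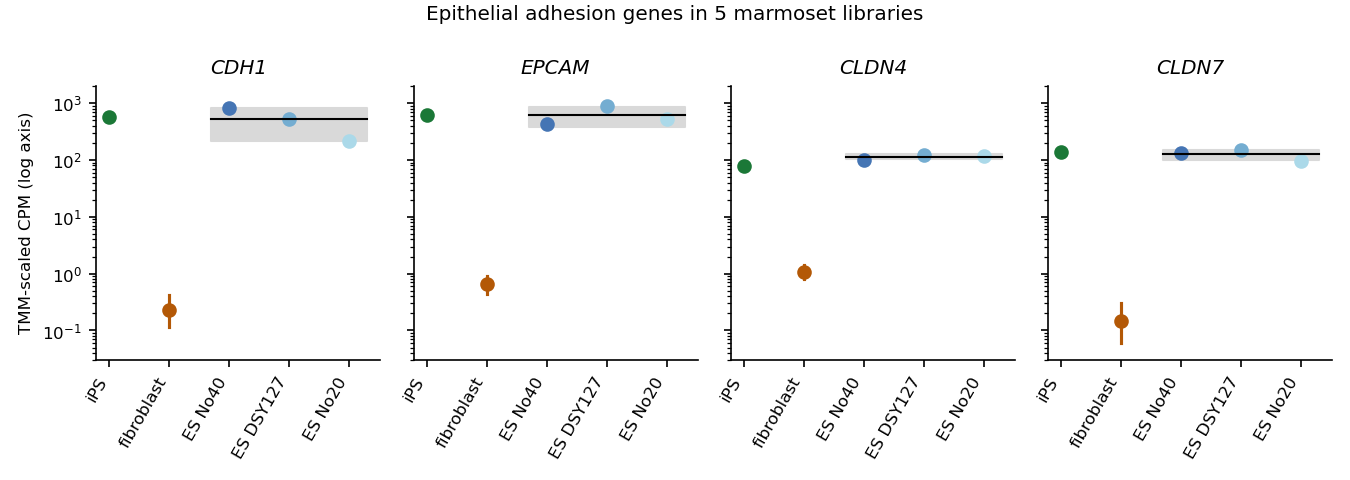
TMM-scaled CPM on a log axis for each gene in the iPS library, the fibroblast library and the 3 ES lines. Vertical lines are 95% exact Poisson intervals of the lone libraries, and the black line and grey band are the ES mean ± SD (n = 3); the fibroblast points, 0.147 to 1.07 CPM, lie far below all the others.

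The log2 fold change of CDH1 in fibroblasts was -11.11 ± 1.27 (SE; adjusted p = 0.00339, edgeR quasi-likelihood test, Benjamini-Hochberg over 17462 genes). EPCAM fell by 9.88 ± 0.82 on the log2 scale (adjusted p = 0.00169, same edgeR test). CLDN7 fell by 9.70 ± 0.69 (adjusted p = 0.00143, same edgeR test). CLDN4 had the smallest fall of the 4, 6.73 ± 0.53 (adjusted p = 0.00158, same edgeR test). These correspond to fitted levels 2212-fold, 941-fold, 830-fold and 106-fold lower. All 4 therefore passed, where 9.28% of the genes tested were called lower, and their median log2 fold change was -9.79 beside -0.15 over all genes. By fitted fold change the falls of CDH1, EPCAM, CLDN7 and CLDN4 ranked 77, 178, 197 and 871 among the 17462 genes. The fibroblast values rest on 7 to 51 reads, and the library is a single one. In bulk RNA, a few cells with much transcript and many cells with little cannot be told apart.

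Markers of keratinocytes, an epithelial cell type rich in these junctions, were read in the same libraries. The 4 of 8 that were measured summed to 1.86 CPM in the iPS library, 1.32 CPM in the fibroblast library and 2.75 to 3.2 CPM in the ES lines. KRT14, a basal keratin, and DSG3 had no read in the fibroblast library. None of the 3 tested passed in the edgeR quasi-likelihood test, DESeq2 called 1 of them lower and limma voom 0, and their part in the fibroblast reads was not tested.

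The iPS library was set against the ES lines to ask whether the reprogrammed cells have regained epithelial adhesion transcripts. CDH1 stood at 579 CPM in the iPS library, against 519 ± 302 CPM in the ES lines (SD, n = 3). EPCAM stood at 625 CPM in iPS cells, against 616 ± 242 CPM in ES cells. Both adhesion genes lay inside the range of the 3 ES lines. CLDN7, at 139 CPM in iPS cells and 125 ± 25.7 CPM in ES cells, was inside it too. CLDN4 alone lay below it, at 76.9 CPM in the iPS library (455 reads, 95% exact Poisson interval 70.0 to 84.3 CPM), against 114 ± 11.4 CPM in the ES lines, whose lowest value was 101 CPM in No40. So 3 of the 4 were inside the ES range, which held for 41.9% of all genes tested.

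None of the 4 passed the test in the iPS library, where 0.109% of all genes did. The log2 fold change against ES cells was 0.16 for CDH1, with a 95% interval of -1.42 to 1.74 (adjusted p = 0.967, edgeR quasi-likelihood test). For EPCAM it was 0.02 (-1.08 to 1.12), and for CLDN7 0.15 (-0.75 to 1.05). CLDN4 had -0.57 (-1.42 to 0.28, adjusted p = 0.727, same edgeR test). None had an unadjusted p under 0.05, and DESeq2 and limma voom called 0 of the 4. The intervals still allow differences of 2-fold or more in at least 1 direction for each gene.

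**Figure D2:**
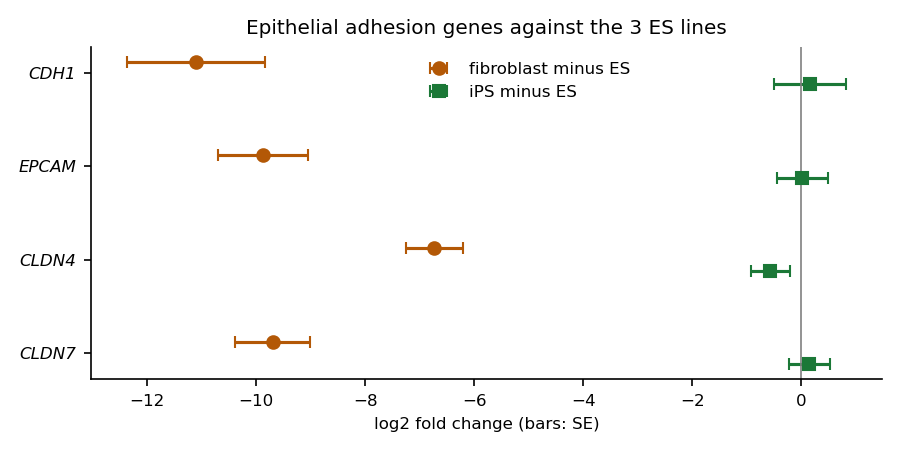
Log2 fold change of each gene in the fibroblast library (circles) and the iPS library (squares) against the 3 ES lines, with SE bars from the edgeR fit. Fibroblast changes run between -11.11 and -6.73 and iPS changes between -0.57 and 0.16; both comparisons share the ES libraries.

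Between the iPS and fibroblast libraries, which have no replicates, only ratios can be given. CDH1 was 2507-fold higher in the iPS library (3426 reads in iPS, 11 in fibroblasts), with a 95% counting interval of 1399-fold to 5026-fold. EPCAM was 960-fold higher (675-fold to 1415-fold) and CLDN7 943-fold higher (456-fold to 2352-fold). CLDN4 was 71.8-fold higher (53.7-fold to 97.9-fold), the smallest ratio of the 4, with an interval that does not reach those of the other 3. At least a 4-fold higher level was found for 19.9% of all genes tested. The intervals cover counting error only.

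Levels were then compared between genes per kilobase of exon, since longer transcripts collect more reads. EPCAM was the most abundant in every pluripotent library, at 487 CPM per kb in iPS cells and 480 ± 188 CPM per kb in ES cells. CDH1 (108 ± 63.2 CPM per kb), CLDN7 (102 ± 21.1) and CLDN4 (72.2 ± 7.24) followed in ES cells. CDH1 did not differ from either claudin beyond the spread of the 3 lines. In the iPS library CDH1, CLDN7 and CLDN4 stood at 121, 114 and 48.6 CPM per kb. The order was another in fibroblasts, where CLDN4 (0.678) and EPCAM (0.507) stood above CLDN7 (0.121) and CDH1 (0.048 CPM per kb). These fibroblast values rest on 51, 31, 7 and 11 reads in a single library. The order of CLDN4 and EPCAM there, and that of CLDN7 and CDH1, is therefore uncertain. The ratio of CLDN4 to CLDN7 per length, which needs no scaling between libraries, was 0.428 in iPS cells, 5.62 in fibroblasts and 0.599 to 0.936 in ES cells. Among all genes tested, EPCAM's mean ES level per length was above that of 99.2%, and those of CDH1, CLDN7 and CLDN4 were above those of 95.7%, 95.3% and 93.0%.

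**Figure D3:**
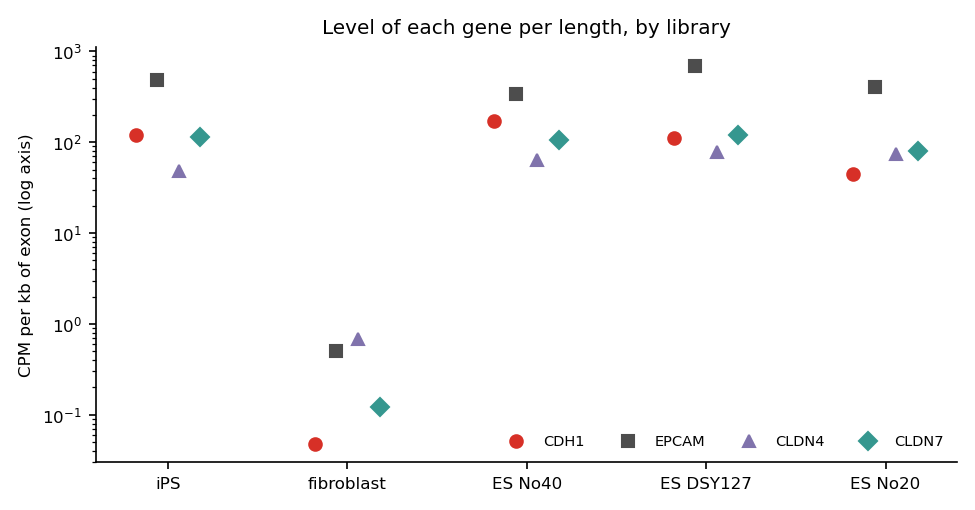
CPM per kilobase of exon on a log axis for the 4 genes, by library. EPCAM is on top in the iPS library and all ES lines, while CDH1 is second in iPS and No40, the third in DSY127 and last in No20 and in the fibroblasts. The fibroblast points rest on 7 to 51 reads.

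The 4 genes differed in how much they varied among the ES lines. CDH1 was the most variable, with a highest value (No40) 3.85-fold above the lowest (No20), while the span was 2.06-fold for EPCAM, 1.52-fold for CLDN7 and 1.22-fold for CLDN4. The SD of log2 CPM over the lines was 0.99 for CDH1, above that of 94.1% of the 11170 genes with at least 5 CPM on average in ES cells, whose median was 0.35. For EPCAM, CLDN7 and CLDN4 it was 0.54, 0.31 and 0.15, above those of 74.6%, 43.2% and 13.0% of these genes. CDH1 and EPCAM did not vary together, since EPCAM was highest in DSY127 and lowest in No40. Per length, CDH1 amounted to 0.506 of EPCAM in No40, 0.159 in DSY127 and 0.108 in No20, and to 0.249 in the iPS library.

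Each line was also tested against the other 2, which leaves 1 residual degree of freedom. CDH1 in No20 stood at 212 CPM against a mean of 672 CPM in the other lines, with a log2 fold change of -1.67 ± 0.47 (unadjusted p = 0.00413, adjusted p = 0.203, edgeR quasi-likelihood test). That difference did not pass in edgeR, but DESeq2 gave an adjusted p of 0.0438 with a log2 fold change of -1.64. Over all genes edgeR called 0.0916% higher and 0.349% lower in No20, 0.0344% higher and 0.00573% lower in DSY127, and none in No40. EPCAM in DSY127 stood at 890 CPM against 479 CPM in the others (0.89 ± 0.45, adjusted p = 1, edgeR quasi-likelihood test). None of the 12 tests passed in edgeR, and CDH1 in No20 was the only one with an unadjusted p under 0.05. Of all genes 5.38% in No40, 2.96% in DSY127 and 9.13% in No20 had such a p.

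Other genes and marker lists were read in line No20 beside CDH1, and the single genes were chosen after their values were seen. CDH2, which encodes N-cadherin of neural and mesenchymal cells, stood at 159 CPM in No20 and at 31.2 and 46.8 CPM in No40 and DSY127 (2.03 ± 0.43 on the log2 scale, with an adjusted p of 0.0899 in edgeR's quasi-likelihood test). ZEB1, a repressor of CDH1, stood at 18.1 CPM in No20 against 5.64 CPM in the others (1.68 ± 0.49, adjusted p = 0.220, same edgeR test), so neither passed. Endoderm markers (7 of 8 measured, AFP at 0 throughout) summed to 542 CPM in No20 and to 115 and 107 CPM in No40 and DSY127. Most of the No20 sum was CER1, which passed (393 CPM in No20 against 47.6 CPM in the others, adjusted p = 0.0445, same edgeR test). GATA6 (89.9 against 27.3 CPM), CXCR4 (35.1 against 10.6 CPM) and FOXA2 (11.1 against 7.10 CPM) were higher in No20 but did not pass. GATA4 (3.59 against 7.56 CPM) and HNF4A (9.58 against 10.96 CPM) were lower there and did not pass either. Trophoblast and amnion markers (6 of 10 measured) summed to 14.9 CPM in No20 and to 82.0 and 111 CPM in No40 and DSY127. Of these TFAP2C fell, at 3.66 CPM in No20 against 55.3 CPM in the others (adjusted p = 0.0178, same edgeR test), and GABRP fell, at 0.206 against 14.8 CPM (adjusted p = 0.0176, same edgeR test). Fibroblast markers (11 of 13 measured) summed to 4740 CPM in No20, between the 5927 and 4184 CPM of No40 and DSY127, but they went both ways. VIM (1240 CPM in No20 against 438 CPM in the others), PDGFRA (60.7 against 29.0 CPM), PDGFRB and COL5A2 were higher in No20. The rest of the 11 were lower, among them FN1 (1985 against 3015 CPM) and COL3A1 (62.7 against 132 CPM). None of the 11 passed in edgeR. The part of these cell types in the CDH1 difference was not tested. CDH3 did not follow CDH1, at 405 CPM in No20 against 423 CPM in the others. Among the junction and epithelial genes examined, 1 passed in any line. This was KRT7, a simple-epithelium keratin, at 241 CPM in DSY127 against 13.03 CPM in the others (4.21 ± 0.48, adjusted p = 0.0171, same edgeR test).

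The nearest genes with a symbol beside CDH1, CLDN4 and CLDN7 on their chromosomes were looked up after the values were seen. Identifiers without a symbol were left out and may lie closer. CDH3, which encodes P-cadherin, lies 38765 bases from CDH1, at lower coordinates on the same strand. It stood at 232 CPM in iPS cells, 1.68 CPM in fibroblasts and 417 ± 110 CPM in ES cells, and fell in fibroblasts (-7.95 ± 0.64 on the log2 scale, with an adjusted p of 0.00158 in edgeR's quasi-likelihood test). TANGO6, 7788 bases from CDH1 on the other side, had 18.9 CPM in iPS cells, 18.5 CPM in fibroblasts and 24.2 ± 3.73 CPM in ES cells. CLDN3 lies 57252 bases from CLDN4 and fell too, at 80.0 CPM in iPS cells, 0.126 CPM in fibroblasts and 56.6 ± 16.7 CPM in ES cells (-8.77 ± 0.78, adjusted p = 0.00199, same edgeR test). Thus a related gene on 1 side of CDH1 and of CLDN4 was low in fibroblasts as well.

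The nearest genes with a symbol on the 2 sides of CLDN7 were ACAP1, 934 bases away, and ELP5, 1262 bases away. ACAP1 fell (-4.28 ± 0.54, adjusted p = 0.00459, edgeR quasi-likelihood test), while ELP5, an Elongator subunit, stood at 62.7 CPM in fibroblasts and 34.3 ± 9.62 CPM in ES cells (0.87 ± 0.44, adjusted p = 0.211, same edgeR test).

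The named genes with the pattern nearest to each gene were found over the 5 libraries, by the root mean square difference of centred log2 CPM among 8659 candidates. CDH1, EPCAM, CLDN4 and CLDN7 were each far lower in the single fibroblast library than elsewhere. The depth of that fall therefore weighs heavily in this difference. For CDH1 the nearest genes were LIN28B, LIN28A, TRIM71, POU5F1 and NANOG, with differences of 0.28 to 0.70. LIN28B, which binds and holds back let-7 microRNA precursors, stood at 687 CPM in iPS cells, 0.189 CPM in fibroblasts, and 671, 656 and 168 CPM in No40, DSY127 and No20, so it was low in No20 like CDH1. For EPCAM they were SPINT2, POU5F1, HTR3A, CLDN7 and UTF1 (0.24 to 0.35). SPINT2 encodes a membrane inhibitor of the protease matriptase. For CLDN7 they were UTF1, NR5A2, SALL4, POU5F1 and HTR3A (0.08 to 0.24). For CLDN4 they were MAPK13, INPP5D, CTSC, RSPH1 and CLDN9 (0.08 to 0.19). MAPK13, a p38 kinase, stood at 28.9 CPM in iPS cells, 0.420 CPM in fibroblasts, and 39.7, 53.5 and 49.4 CPM in the ES lines.

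To place the 4 genes in their pathway, 7 lists of other junction and epithelial genes were read from the same fit. Of 108 listed genes 84 were measured and 79 tested. In the fibroblast library 31 (39.2%) fell and 10 (12.7%) rose, beside 9.28% and 8.8% of all genes tested. Their median log2 fold change was -1.27, beside -9.79 for the 4 genes. Both the 4 genes and the lists were chosen with earlier results of these data known, so this gap may reflect that choice. Without line No40, 26 fell and 5 rose, and with total counts alone as scaling 33 fell and 6 rose.

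Of 15 adherens junction genes tested (16 listed), 4 fell, 3 rose and 8 did not pass (median 0.11). CDH3, the nectin NECTIN2 (-2.55 ± 0.41) and the p120-binding PLEKHA7 (-3.69 ± 0.57) fell, as did NECTIN4, while the nectins NECTIN1 (1.44 ± 0.53) and NECTIN3 (0.11 ± 0.36) did not pass. LMO7, which binds actin-linked junction proteins, rose (3.48 ± 0.59), as did VCL and LIMA1, but none of these 3 passed without line No40. The catenins that join E-cadherin to actin were abundant in all libraries. CTNNB1 stood at 653 CPM in iPS cells, 775 CPM in fibroblasts and 438 to 709 CPM in ES cells, and CTNNA1 at 537, 697 and 564 to 789 CPM. Neither passed in either comparison. CDH2, the N-cadherin gene of the same list, stood at 292 CPM in fibroblasts against 31.2 to 159 CPM in ES cells (1.89 ± 0.78, adjusted p = 0.143, edgeR quasi-likelihood test), and passed without No20 (3.02).

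Of 9 other cadherins (10 listed), 3 rose and 1, CDH22, fell (median -0.61). CDH13, a cadherin without a cytoplasmic tail, stood at 767 CPM in fibroblasts against 8.39 to 17.7 CPM in ES cells (5.89 ± 0.44, adjusted p = 0.00148, edgeR quasi-likelihood test). CDH6 (3.26 ± 0.37) and the mesenchymal cadherin CDH11 (3.03 ± 0.74) rose too. CDH11 did not pass without No40 or with total counts alone, nor did CDH22 without No40.

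Among claudins, 10 of 18 were measured, 6 tested, and 2 fell (median -1.45). These were CLDN3 and CLDN9, the second at 0.966 CPM in fibroblasts against 74.8 to 105 CPM in ES cells (-6.47 ± 0.58). CLDN12, a more widely made claudin, stood at 29.2 CPM against 67.4 to 98.2 CPM (-1.47 ± 0.42, adjusted p = 0.055, edgeR quasi-likelihood test), and passed in 5 of 11 alternatives.

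Of 18 tight junction and polarity genes tested (22 listed), 9 fell and 2 rose (median -1.54). The kinase PRKCZ (-9.14 ± 0.69), the adhesion molecule F11R (-6.61 ± 0.54), the adaptor CGN (-7.33 ± 0.59), the tricellular junction protein LSR (-8.05 ± 0.67) and occludin, OCLN (-4.11 ± 0.51), were among those that fell. The scaffold gene TJP1, which encodes ZO-1, rose at 570 CPM in fibroblasts against 194 to 297 CPM in ES cells (1.28 ± 0.35), though the call was lost when DSY127 was left out, and under limma voom, upper-quartile factors or total counts alone.

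Desmosomes anchor intermediate filaments at cell contacts. Of 8 such genes tested (10 listed), 5 fell and 0 rose (median -3.63). DSP, the desmosomal plaque protein, stood at 52.5 CPM in fibroblasts against 463 to 824 CPM in ES cells (-3.66 ± 0.51), and DSG2, a desmosomal cadherin, at 18.1 against 188 to 225 CPM (-3.52 ± 0.42). PKP2 (-3.61 ± 0.51), PKP1 and EVPL fell too, and PPL (-1.18 ± 0.60) did not pass.

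Of 10 relatives and partners of EPCAM (11 listed), 2 fell and 2 rose (median -0.18). SPINT2 (-10.15 ± 0.73) and ST14 (-9.86 ± 1.17), the matriptase that cleaves EPCAM in human intestinal epithelial cells, fell as well. CD44, a hyaluronan receptor, rose (3.58 ± 0.51), as did TSPAN8 at 2.67 CPM, which did not pass without No40. Of 13 tested epithelial keratins and regulators (21 listed), 8 fell and 0 rose (median -7.08). The splicing regulator ESRP1 (-10.10 ± 0.62), the adaptor AP1M2 (-7.63 ± 0.62), the transcription factor GRHL2 (-7.24 ± 0.59) and the trafficking gene RAB25 (-8.60 ± 0.83) fell.

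In the iPS library none of the 79 genes passed in the edgeR quasi-likelihood test, where 0.109% of all genes did. At an unadjusted p under 0.05, 0 of them were higher and 2 lower. Over all 17462 genes tested, 971 were higher and 547 lower at such a p. DESeq2 called 1 lower (CD44, at 8.62 CPM in iPS cells against 25.3 to 62.5 CPM in ES cells) and limma voom 0. The median log2 fold change was -0.35, beside -0.11 over all genes. ESRP1 stood at 172 CPM in iPS cells against 243 to 326 CPM in ES cells, and DSP at 553 against 463 to 824 CPM. On the log2 scale 68 of the 79 genes, and all 4 adhesion genes, were closer in the iPS library to the mean of the ES lines than to the fibroblast library, as were 74.8% of all genes tested.

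**Figure D4:**
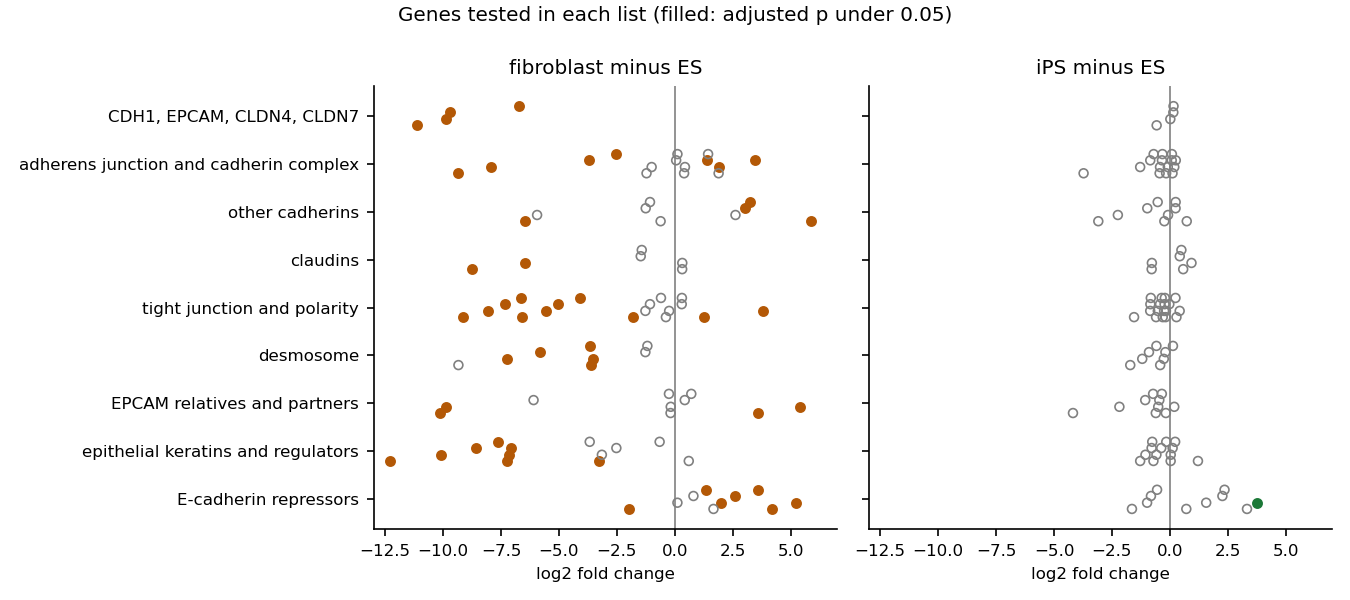
Log2 fold change of each tested gene by list, for the fibroblast library (left) and the iPS library (right) against the ES lines. Filled points passed at an adjusted p under 0.05 and open points did not; the 4 adhesion genes, all filled on the left between -11.11 and -6.73, are open and near 0 on the right. Fitted values of genes with no read in 1 library depend on the prior count.

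Repressors of E-cadherin transcription were read beside CDH1. Of 10 tested (12 listed), 6 rose in the fibroblast library and 1 fell (median 1.83), beside 8.8% of all genes that rose. SNAI2 stood at 177 CPM in fibroblasts against 2.62 to 7.14 CPM in ES cells (5.22 ± 0.54, adjusted p = 0.00266, edgeR quasi-likelihood test). TWIST2 (4.19 ± 0.45), ZEB1 (3.60 ± 0.68), PRRX1 (2.60 ± 0.34) and ZEB2 (1.99 ± 0.40) rose, and the corepressor CTBP2 fell (-2.00 ± 0.37). Without No40, 3 rose, and ZEB1 and ZEB2 did not pass.

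Several of these were also high in the iPS library, where CDH1 lay inside the ES range. PRRX1 stood at 389 CPM in iPS cells against 22.0 to 33.05 CPM in ES cells and was the 1 of 10 that rose (3.76 ± 0.34, adjusted p = 0.0349, edgeR quasi-likelihood test), though not without No40 or with limma voom. ZEB2 stood at 415 CPM in iPS cells against 31.3 to 56.9 CPM in ES cells (3.33 ± 0.39, adjusted p = 0.0559, same edgeR test) and passed in 7 of 11 alternatives. ZEB1 stood at 50.4 against 4.45 to 18.1 CPM (2.36 ± 0.70, adjusted p = 0.361, same edgeR test), and TWIST2 at 70.7 against 8.53 to 19.02 CPM (2.27 ± 0.46, adjusted p = 0.152, same edgeR test). TWIST2 passed with no low-count filter, with DESeq2 and without No20, and ZEB1 passed without No20. SNAI2 was not high in the iPS library, at 1.52 CPM against 2.62 to 7.14 CPM in ES cells, and did not pass. A count of 3 is worth 0.507 CPM in the iPS library, so this value rests on few reads and a fall cannot be read from it.

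**Figure D5:**
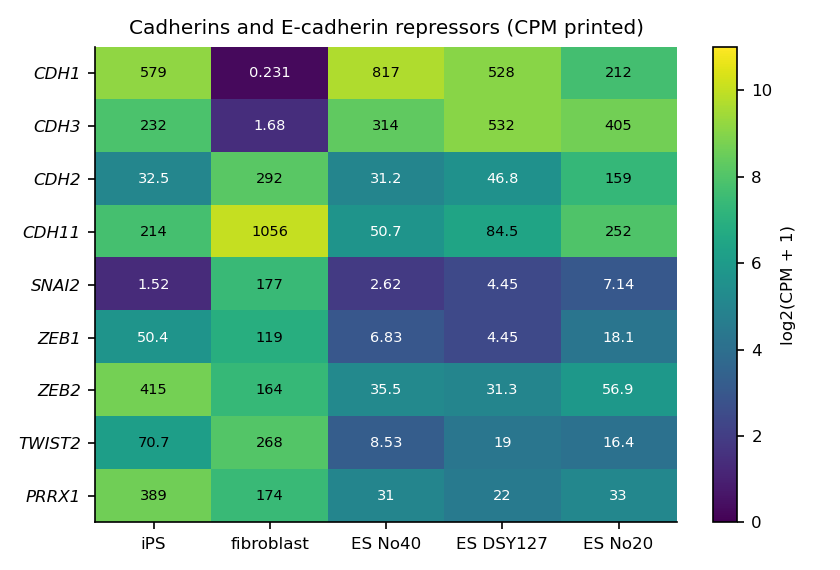
CPM (printed in each cell, coloured as log2(CPM + 1)) of 4 cadherins and 5 E-cadherin repressors in the iPS library, the fibroblast library and the 3 ES lines. CDH1 is at 579 CPM in iPS cells, where ZEB2 and PRRX1 are at 415 and 389 CPM, and at 0.231 CPM in fibroblasts, where SNAI2 is at 177 CPM.

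Markers of other cell types were read in the same iPS library. COL1A2, a fibroblast collagen, stood at 3447 CPM in iPS cells against 228 to 263 CPM in ES cells and rose (3.78 ± 0.27, adjusted p = 0.0205, edgeR quasi-likelihood test), though not without No40, while the fibroblast marker DCN was at 6.59 CPM, below all ES lines. Of the 11 fibroblast markers tested, 1 rose and 0 fell in edgeR, while DESeq2 called 3 higher and limma voom 1. Of the 6 trophoblast and amnion, 6 endoderm and 6 endothelial markers tested none passed in edgeR. At an unadjusted p under 0.05 there were 1, 2 and 1 of them, DESeq2 called 1, 1 and 0, and limma voom called 0 in each list. Over all 17462 genes tested edgeR called 0.109%, and 971 were higher and 547 lower at an unadjusted p under 0.05. The 6 of 10 measured trophoblast and amnion markers summed to 295 CPM in iPS cells, 15.3 CPM in fibroblasts and 14.9 to 111 CPM in ES cells. Most of this was TFAP2A, an epithelial and surface ectoderm factor, at 235 CPM in iPS cells against 3.61 to 10.99 CPM in ES cells (4.97 ± 0.56, adjusted p = 0.0507, same edgeR test), which passed in 7 of 11 alternatives. VTCN1 and CDX2 of that list had no read there. The part of such cells in the iPS values of CDH1, EPCAM, CLDN4 and CLDN7 was not tested.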

How the data were processed

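Per the labels' protocols, RNA was extracted with an RNeasy Mini kit and Illumina libraries were made. The deposited values are raw read counts per gene, with a gene length; a series table and the files of single libraries hold identical counts. The submitters' processing notes list featureCounts 1.5.2, STAR 2.5.3a and Trim Galore 0.4.0, without saying how each was used. No source used here gives the build, the strand setting or the treatment of multi-mapping reads. Of 30811 identifiers, 12660 (41.1%) matched a symbol.

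Counts were filtered with filterByExpr (17462 genes), scaled with TMM factors and fitted in edgeR 4.0.16 (R 4.3.3) with the 3 groups as levels; glmQLFTest gave p-values, adjusted by Benjamini-Hochberg and called under 0.05. DESeq2 1.42.0 and limma 3.58.1 were alternatives. SE is the fold change over the root of the F statistic. Likeness used log2 CPM with a prior count of 2 and genes of at least 5 CPM. CPM per kb used the deposited gene length. All intervals are 95%; those of counts and of count ratios cover counting error only, and those of log2 fold changes come from the edgeR fit. The steps were tested on simulated data. Named genes are the 4 genes, the nearest patterns (5 each), and from each list up to 4 called genes by smallest adjusted p and up to 2 uncalled by level; any other list gene was picked with its values in view. The members and lists were chosen with earlier results of these data known. Some results are not reported here. A 97-base identifier inside the EPCAM span held 0 to 22 reads. Nothing in the labels says that the ES libraries are separate cultures beyond their line names.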

Additional observations from a re-analysis of the deposited data

How the results depend on the processing

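The 4 genes passed as lower in fibroblasts in all 11 alternative fits, with log2 fold changes of -11.49 to -10.54 for CDH1, -10.26 to -9.43 for EPCAM, -7.12 to -6.59 for CLDN4 and -10.07 to -9.47 for CLDN7. None passed in the iPS library in any of the 11. There CDH1 ran between -0.19 (without No20) and 0.64, EPCAM between -0.19 (without No40) and 0.38, with -0.020 under total counts alone, -0.0088 with no low-count filter and -0.06 without No20, and CLDN4 stayed negative. CDH1 in line No20 gave -1.64 with DESeq2, which passed. Counts of all genes lower in fibroblasts (1620) were 2703 with DESeq2 and 1009 with limma voom, and 818 to 2366 leaving out 1 ES line; higher (1537) they were 924 to 2184, and the lowest of each was without No40. Scaling by total counts alone gave 1066 higher and 2016 lower, with a shift of -0.38 in the median of all genes, upper-quartile factors gave 1201 and 1859 (-0.26), and limma voom 1674 higher. Junction genes higher in fibroblasts (10) were 6 with total counts alone and 5 to 12 leaving out a line. In the iPS library 19 genes were higher and 0 lower, against 198 and 6 with no low-count filter, 348 and 68 with DESeq2, 5 and 0 with limma voom, and 0 to 256 higher and 0 to 12 lower leaving out a line (0 without No40, 41 without DSY127, 256 without No20); DESeq2 called 1 junction gene lower. Uncalled genes that changed sign were CTNNA1 in fibroblasts (-0.20 under upper-quartile factors, -0.33 under total counts alone), KRT7 in fibroblasts (-2.94 to 0.34 leaving out a line, positive without DSY127), KRT7 in iPS cells (1.07 with limma voom, -0.88 to 2.40 leaving out a line) and TJP1 in iPS cells (-0.29 to 0.014 leaving out a line). Repressors called higher in iPS cells were 1, against 0 to 4 over the alternatives. No paired analysis was possible because only the ES group has more than 1 library. The planned description of promoter motifs was not run. The cause of these shifts was not tested. The iPS library's depth limits values under 0.507 CPM.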
